A study of Danio rerio with 9 samples.

Results

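The transcripts of the mitochondrial respiratory chain and of ATP synthase were followed in zebrafish embryos without functional MondoA, a glucose-sensing transcription factor encoded by *mondoa* (gene symbol *mlxip*). Members were chosen by symbol: nuclear genes whose symbols begin with *nduf*, *uqcr*, *cox4* to *cox8* or *atp5*, the *sdha* to *sdhd* genes, *cyc1*, and the protein-coding genes of the mitochondrial genome. This gave 118 of the 32055 genes in the count table, of which 105 were nuclear and 13 mitochondrial. After the filter on low counts 106 of them remained among 16962 tested genes, 93 nuclear and all 13 mitochondrial.

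The respiratory chain sits in the inner mitochondrial membrane. Complex I (NADH dehydrogenase) and complex II (succinate dehydrogenase) feed electrons to coenzyme Q, complex III passes them on to cytochrome c, and complex IV (cytochrome c oxidase) hands them to oxygen. Complexes I, III and IV pump protons, and ATP synthase, also called complex V, uses the resulting gradient to make ATP. Complex II is encoded by nuclear genes alone, whereas the other complexes are built from subunits of both genomes. In vertebrates, all protein-coding mitochondrial genes except *mt-nd6* are carried on the heavy-strand transcript, and *mt-nd6* alone comes from the light-strand transcript. Mitochondria and their DNA in the early embryo come from the egg.

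Total RNA depleted of ribosomal RNA was sequenced from pools of whole embryos in 3 groups of 3 libraries. Both mutant groups were maternal-zygotic mutants for the *mondoa* allele ka405 (MZ*mondoa*), the offspring of homozygous mutant parents, and were separated by eye into embryos affected and embryos unaffected in epiboly, the movement by which cells of the early embryo come to cover the yolk. The reference was wild-type (WT) embryos. No further treatment or transgene was applied to any group, and all libraries carry the label 5 hours post fertilization (hpf), whereas the study's methods place sampling at a later stage, when affected mutants could be told apart. The mutants were progeny of mutant mothers and the WT embryos of other mothers, so the *mondoa* genotype and the maternal line of the mitochondria cannot be told apart in this design.

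Libraries held between 27567897 and 39299268 counts, of which the respiratory chain genes took 1.44% to 2.25%. The early embryo markers *tbxta*, *chrd* and *sox3* were detected in every library, at 141 to 464 CPM (read counts relative to the library total, scaled between libraries by the trimmed mean of M-values, TMM). The targeted gene *mlxip* (ENSDARG00000059474) had 15.0, 16.1 and 12.8 CPM in affected mutants, 21.0, 20.8 and 13.01 CPM in unaffected mutants, and 111, 113 and 51.9 CPM in WT embryos. All mutant libraries were below all WT libraries, with a log2 fold change of -2.65 for affected (adjusted p = 0.000252) and -2.33 for unaffected mutants (adjusted p = 0.000963). WT replicate 3 had the lowest *mlxip* level of the WT libraries and also stood apart in several mitochondrial transcripts. For some results, though not all, values without it are therefore given as well.

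The summed mitochondrial transcripts were higher in both mutant groups than in WT embryos, though not every mitochondrial gene was, while the nuclear sums of the groups overlapped. Summed over the 13 mitochondrial genes, affected mutants had 15570, 17520 and 18670 CPM, unaffected mutants 16020, 17570 and 18560 CPM, and WT embryos 11680, 11480 and 14840 CPM. Every mutant library lay above every WT library. The log2 ratio of the group means was 0.45 for affected over WT, 0.46 for unaffected over WT and -0.01 for affected over unaffected mutants. Without WT replicate 3, the highest of the WT libraries, the ratios over WT were 0.58 and 0.59. Replicate 3 was the highest library of each group, so leaving it out of WT alone raises these ratios. Because whole embryos were sequenced, a change in the RNA of each cell and a change in the share of a cell type cannot be told apart.

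Summed over the nuclear genes, affected mutants had 2899, 2919 and 3191 CPM, unaffected mutants 2878, 2914 and 3344 CPM, and WT embryos 2746, 2799 and 3149 CPM. Here the groups overlapped, and replicate 3 was the highest library of each group. The log2 ratios were 0.05 for affected over WT, 0.07 for unaffected over WT and -0.02 for affected over unaffected mutants, all smaller than the spread between replicates. The mitochondrial sum was 5.37, 6.0 and 5.85 times the nuclear sum in affected mutants, 5.57, 6.03 and 5.55 times in unaffected mutants, and 4.25, 4.10 and 4.71 times in WT embryos. This ratio also separated all mutant from all WT libraries. Of the nuclear complexes, the summed complex III genes alone lay above WT without overlap in affected mutants, at 454, 458 and 504 CPM in affected mutants, 437, 455 and 511 CPM in unaffected mutants, and 388, 416 and 443 CPM in WT embryos. With 3 against 3 libraries an exact two-sided permutation test cannot give a p below 0.1, so these sums are given without a test.

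**Figure D1:**
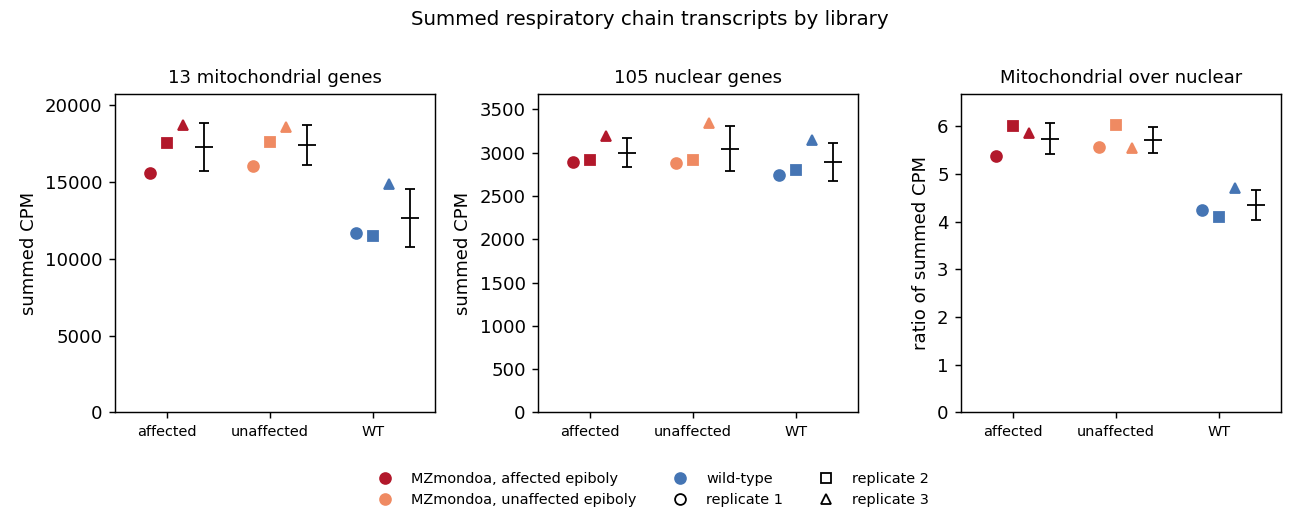
Summed TMM-scaled CPM of the 13 mitochondrial genes, of the nuclear genes, and the ratio of both sums (vertical axes, starting at 0) in each library of affected MZ*mondoa*, unaffected MZ*mondoa* and WT embryos; symbols mark replicate numbers, and the black bars give mean and SD of 3 libraries. The mutant libraries lie at 15570 CPM or more for the mitochondrial sum and all WT libraries at 14840 CPM or less, while the nuclear sums overlap.

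Gene by gene, 15 of the 106 tested members differed between affected mutants and WT embryos at an adjusted p below 0.05, which is 14.2%, against 30.3% of all tested genes. Of these, 11 were higher (15.4% of all genes were) and 4 lower (15.0% of all genes). Split by genome, 7 of 13 mitochondrial members were higher and 0 lower, and 4 of 93 nuclear members were higher and 4 lower. Among the nuclear members the share was 8.60%. When libraries were scaled by their size only, 10 members were higher and 6 lower, and among nuclear members 3 were higher and 5 lower. Leaving out 1 library at a time gave 9 to 17 members, with 9 (4 of them nuclear) without affected replicate 2 and 10 (5 nuclear) without affected replicate 3. Without WT replicate 3, 16 were higher and 1 lower. The shares of all genes in these alternative fits are not given here, so the counts show only how far the calls depended on the setting.

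Between unaffected mutants and WT embryos 12 of 106 members differed, or 11.3%, against 9.60% of all tested genes. Of these, 9 were higher (4.65% of all genes were) and 3 lower (4.95% of all genes). They comprised 9 of 13 mitochondrial members, 8 higher and 1 lower, and 3 of 93 nuclear members, 1 higher and 2 lower. With the replicate number as a block, 21 members passed, 15 higher and 6 lower, of which 10 were nuclear, against 16.3% of all genes. The count depended on single libraries: 2 members passed without unaffected replicate 2, 6 without unaffected replicate 1 and 6 without WT replicate 1. In a fit of these 6 libraries alone 7 members passed. For these fits the share of all genes is not given here, so the lower counts cannot be read as particular to the members.

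Between affected and unaffected mutants 0 of the 106 members passed by edgeR, against 2.99% of all tested genes (1.88% higher and 1.11% lower). At an unadjusted p below 0.05 there were also 0 members, against 18.2% of all tested genes. DESeq2 called 0 members and edgeR with the replicate block 0, and the shares of all genes in these fits are not given here. The median standard error of the members' log2 fold changes in this comparison was 0.15. By a normal approximation, the 95% interval of a member with the median standard error reached 0.29 to either side of its fold change. With so few libraries an interval from the test itself would be wider. The median log2 fold change was -0.03 over the mitochondrial members and -0.01 over the nuclear members, which ran from -0.49 (*cox4i2*) to 1.04 (the *sdhd* gene ENSDARG00000055712, at 4 to 11 counts in the mutant libraries).

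Over the nuclear members the median log2 fold change was 0.03 for affected and 0.05 for unaffected mutants over WT, next to -0.02 and -0.01 over all tested genes. Over the mitochondrial members it was 0.45 for affected and 0.54 for unaffected mutants. Scaled by library size only, the nuclear median for affected mutants was -0.03. The fold changes of 72 nuclear members lay within 0.3 of 0 on the log2 scale in affected mutants, and those of 77 in unaffected mutants. Both comparisons use the same WT libraries, and 10 members passed the threshold in both, 7 mitochondrial and 3 nuclear.

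**Figure D2:**
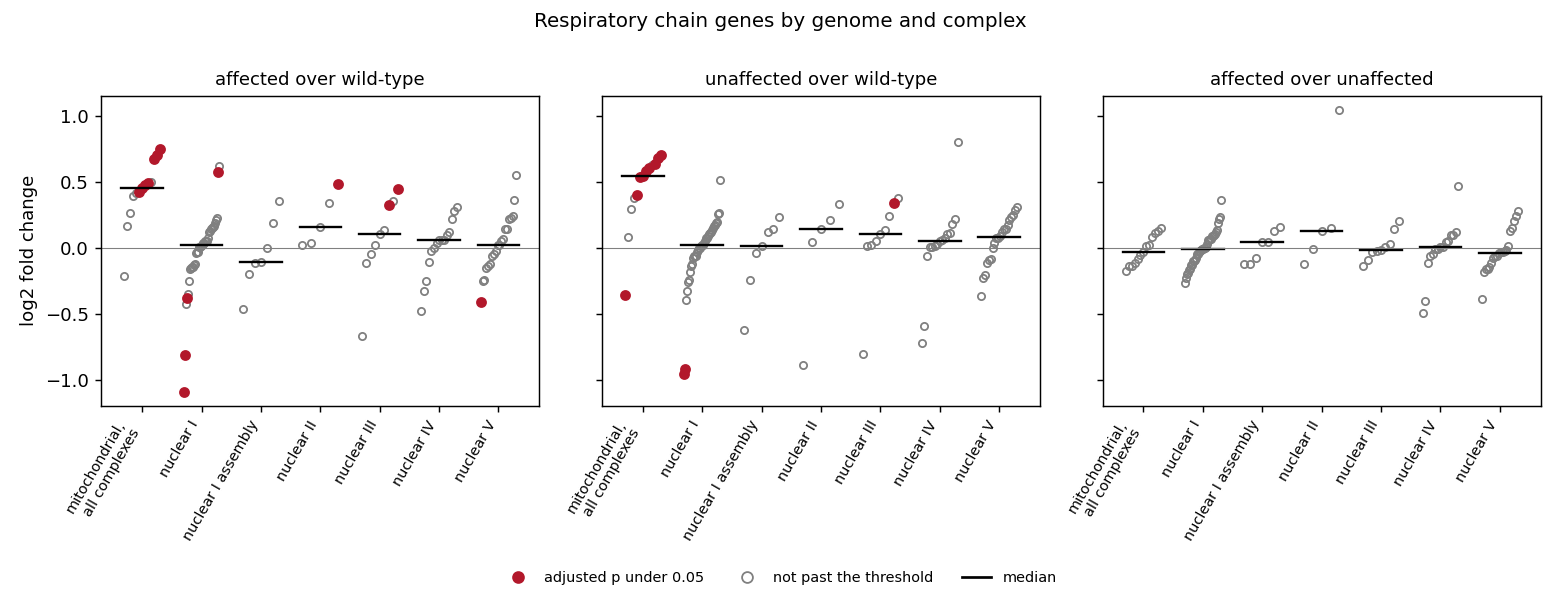
Log2 fold change (vertical axis) of every tested member by genome and complex for affected over WT, unaffected over WT and affected over unaffected; filled red points passed an adjusted p of 0.05, open points did not, and black lines are medians. The mitochondrial medians stand at 0.45 and 0.54 over WT and at -0.03 between the mutant groups, and over WT no nuclear complex has a median as far from 0.

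Of the complex IV genes of the mitochondrial genome, *mt-co2* and *mt-co3* passed in both mutant groups. *mt-co3* (ENSDARG00000063912), a core subunit of cytochrome c oxidase, had 1961, 2428 and 2451 CPM in affected mutants, 2039, 2419 and 2520 CPM in unaffected mutants, and 1282, 1367 and 1637 CPM in WT embryos. No mutant library overlapped with WT. The log2 fold change was 0.67 ± 0.13 (SE) for affected (adjusted p = 0.00425) and 0.70 ± 0.13 for unaffected mutants (adjusted p = 0.00953). It passed the threshold with any single library left out in both comparisons.

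*mt-co2* (ENSDARG00000063908), which holds the entry site for electrons from cytochrome c, had 2288, 2732 and 3007 CPM in affected mutants, 2324, 2681 and 2917 CPM in unaffected mutants, and 1478, 1353 and 2104 CPM in WT embryos. All mutant libraries were above WT, although WT replicate 3 came close to the lowest mutant libraries. The log2 fold change was 0.70 ± 0.17 in affected (adjusted p = 0.0125) and 0.68 ± 0.17 in unaffected mutants (adjusted p = 0.0341), where 5 of 6 fits without a single library no longer passed (adjusted p up to 0.106). Without WT replicate 3 the log2 fold changes were 0.92 in affected (adjusted p = 0.00156) and 0.90 in unaffected mutants (adjusted p = 0.00435).

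*mt-co1* (ENSDARG00000063905), the catalytic subunit and the member with the most counts, had 5974, 5817 and 6998 CPM in affected mutants, 6069, 5856 and 6674 CPM in unaffected mutants, and 4401, 3754 and 6173 CPM in WT embryos. The groups overlapped through WT replicate 3 alone. The log2 fold changes of 0.39 and 0.38 did not pass (adjusted p = 0.105 for affected and 0.195 for unaffected mutants). Without WT replicate 3 they were 0.62 (adjusted p = 0.00584) and 0.60 (adjusted p = 0.0159). Replicate 3 was the highest library of each group. Without replicate 3 of every group, an alternative chosen after seeing the data, the log2 fold changes were 0.53 (adjusted p = 0.00501) and 0.55 (adjusted p = 0.0113). With the replicate block both comparisons passed, at 0.41 in affected (adjusted p = 0.0108) and 0.40 in unaffected mutants (adjusted p = 0.027).

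The heavy-strand complex I genes encode the membrane arm of NADH dehydrogenase. *mt-nd3* (ENSDARG00000063914) had 393, 518 and 525 CPM in affected mutants, 366, 449 and 510 CPM in unaffected mutants, and 273, 263 and 318 CPM in WT embryos. This was the highest fold change of any mitochondrial gene in affected mutants, at 0.75 ± 0.15 on the log2 scale (adjusted p = 0.0045), and it was 0.63 ± 0.15 in unaffected mutants (adjusted p = 0.0249). In unaffected mutants it did not pass without unaffected replicate 2 or 3 or without WT replicate 1 or 2 (adjusted p up to 0.0778).

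*mt-nd4* (ENSDARG00000063917) had 684, 807 and 788 CPM in affected mutants, 758, 875 and 828 CPM in unaffected mutants, and 523, 592 and 528 CPM in WT embryos. With log2 fold changes of 0.47 ± 0.10 (adjusted p = 0.00591) and 0.58 ± 0.10 (adjusted p = 0.00548), it passed in every fit without a single library in both comparisons, as *mt-co3* did. Its neighbour *mt-nd4l* (ENSDARG00000063916), which overlaps it in the annotation, had 95.6, 109 and 118 CPM in affected mutants, 97.8, 117 and 119 CPM in unaffected mutants, and 73.4, 83.0 and 72.5 CPM in WT embryos, with log2 fold changes of 0.49 (adjusted p = 0.008) and 0.54 (adjusted p = 0.0135, and 0.0571 without unaffected replicate 2). Reads of such overlapping genes may be shared between them.

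*mt-nd1* (ENSDARG00000063895) had 661, 815 and 790 CPM in affected mutants, 753, 885 and 925 CPM in unaffected mutants, and 541, 635 and 513 CPM in WT embryos. *mt-nd5* (ENSDARG00000063921) had 736, 966 and 834 CPM in affected mutants, 822, 1007 and 867 CPM in unaffected mutants, and 648, 684 and 526 CPM in WT embryos. Both were above WT in every mutant library and passed in both comparisons, with log2 fold changes of 0.42 and 0.45 in affected mutants and 0.60 and 0.54 in unaffected mutants. The calls in affected mutants were each lost in 4 of 6 fits without a single library (affected replicate 2 or 3, WT replicate 1 or 3; adjusted p up to 0.0901 for *mt-nd1* and 0.117 for *mt-nd5*). In unaffected mutants *mt-nd1* was lost only without unaffected replicate 2 (adjusted p = 0.0546) and *mt-nd5* in 4 of 6 fits (unaffected replicate 1 or 2, WT replicate 1 or 3; adjusted p up to 0.124).

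*mt-nd2* (ENSDARG00000063899) had 576, 649 and 659 CPM in affected mutants, 623, 700 and 749 CPM in unaffected mutants, and 461, 554 and 555 CPM in WT embryos. The groups were again apart. The log2 fold change was 0.26 in affected (adjusted p = 0.0904, and 0.0071 with the replicate block) and 0.40 in unaffected mutants (adjusted p = 0.0437). The call in unaffected mutants held in 1 of 6 fits without a single library, that without WT replicate 3.

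The mitochondrial ATP synthase genes and *mt-cyb* did not pass in either comparison in the main edgeR fit of all 9 libraries. *mt-atp6* passed in both by DESeq2, and by edgeR without a filter on low counts or with the replicate block. *mt-atp6* (ENSDARG00000063911), which encodes the proton channel subunit, had 519, 760 and 618 CPM in affected mutants, 546, 826 and 708 CPM in unaffected mutants, and 426, 515 and 404 CPM in WT embryos. All mutant libraries were above WT. The adjusted p was close to the threshold for affected (log2 fold change 0.50, adjusted p = 0.057, and 0.00289 with the replicate block) and for unaffected mutants (0.63, adjusted p = 0.0508, and 0.00265 with the replicate block). *mt-atp8* (ENSDARG00000063910) overlaps *mt-atp6* in the annotation and had the fewest counts, at 18.4 to 41.1 CPM, and its groups overlapped.

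*mt-cyb* (ENSDARG00000063924), the only complex III gene of the mitochondrial genome, had 1172, 1392 and 1344 CPM in affected mutants, 1135, 1276 and 1289 CPM in unaffected mutants, and 937, 1087 and 1463 CPM in WT embryos. WT replicate 3 was the highest of all 9 libraries. The log2 fold change of 0.16 in affected mutants did not pass (adjusted p = 0.446), but was 0.37 without that library (adjusted p = 0.038), while that in unaffected mutants was 0.09 (adjusted p = 0.776), and 0.28 without that library (adjusted p = 0.15).

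*mt-nd6* (ENSDARG00000063922), the light-strand gene, went the other way. It had 486, 482 and 507 CPM in affected mutants, 464, 437 and 429 CPM in unaffected mutants, and 615, 563 and 528 CPM in WT embryos. Every mutant library was below every WT library, and it was the only mitochondrial gene with a negative fold change over WT. The log2 fold change was -0.21 ± 0.08 in affected mutants (adjusted p = 0.0856) and -0.36 ± 0.08 in unaffected mutants (adjusted p = 0.0249). The call in unaffected mutants was lost in 5 of 6 fits without a single library, the exception being WT replicate 3, with an adjusted p of up to 0.105. Scaled by library size only, the affected mutants passed as well (log2 fold change -0.27, adjusted p = 0.0415), and so they did with the replicate block (-0.21, adjusted p = 0.039).

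**Figure D3:**
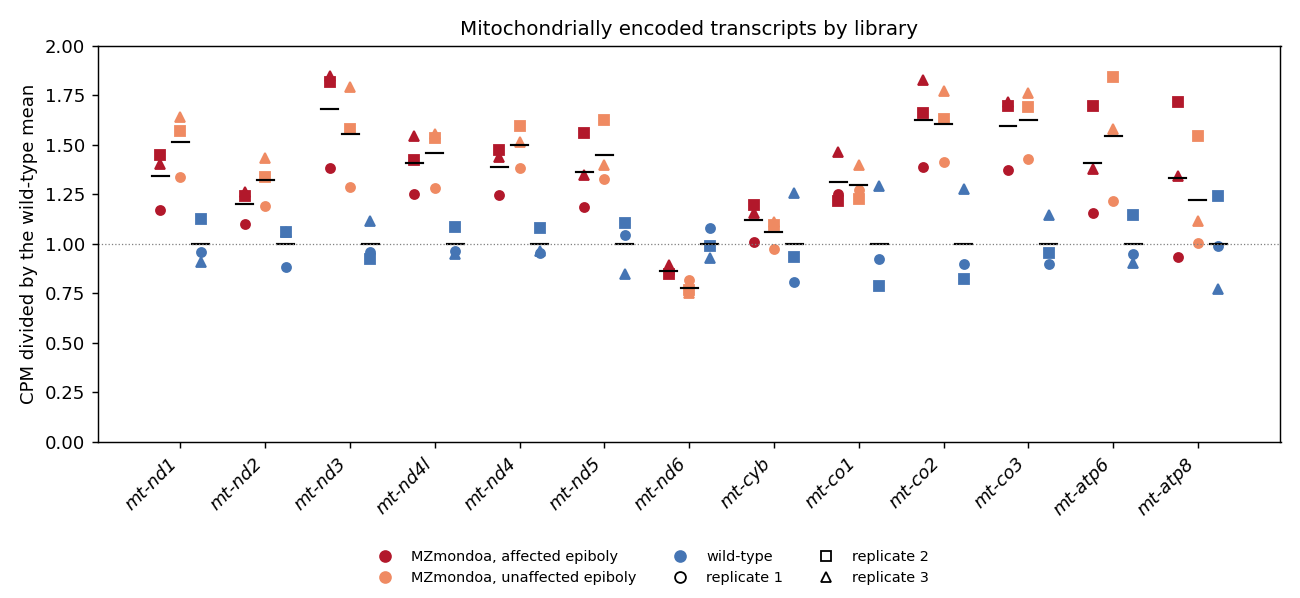
CPM of each mitochondrial gene divided by its WT mean (vertical axis, starting at 0) for affected, unaffected and WT libraries from left to right; symbols mark replicate numbers and black bars are group means. The mutant libraries of *mt-nd6* lie below 1, and those of 9 of the 12 other genes lie above all WT libraries.

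As a share of all mitochondrial protein-coding counts, which does not depend on the scaling between libraries, *mt-nd6* made up 3.12%, 2.75% and 2.72% in affected mutants, 2.90%, 2.49% and 2.31% in unaffected mutants, and 5.26%, 4.91% and 3.56% in WT embryos. The share of *mt-cyb* was 7.53%, 7.95% and 7.20% in affected mutants, 7.08%, 7.26% and 6.94% in unaffected mutants, and 8.02%, 9.47% and 9.86% in WT embryos. Both shares were lower in every mutant library than in any WT library. Those of *mt-co2* and *mt-co3* were higher in every mutant library: *mt-co3* took 12.6% to 13.9% in affected mutants, 12.7% to 13.8% in unaffected mutants, and 10.97% to 11.9% in WT embryos. *mt-nd6* is encoded on the other strand than *mt-nd5*, with which it overlaps in the annotation to an extent not given here. Whether counting used the strand is not given in the sources used here, so reads from both strands over *mt-nd6* cannot be told apart.

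**Figure D4:**
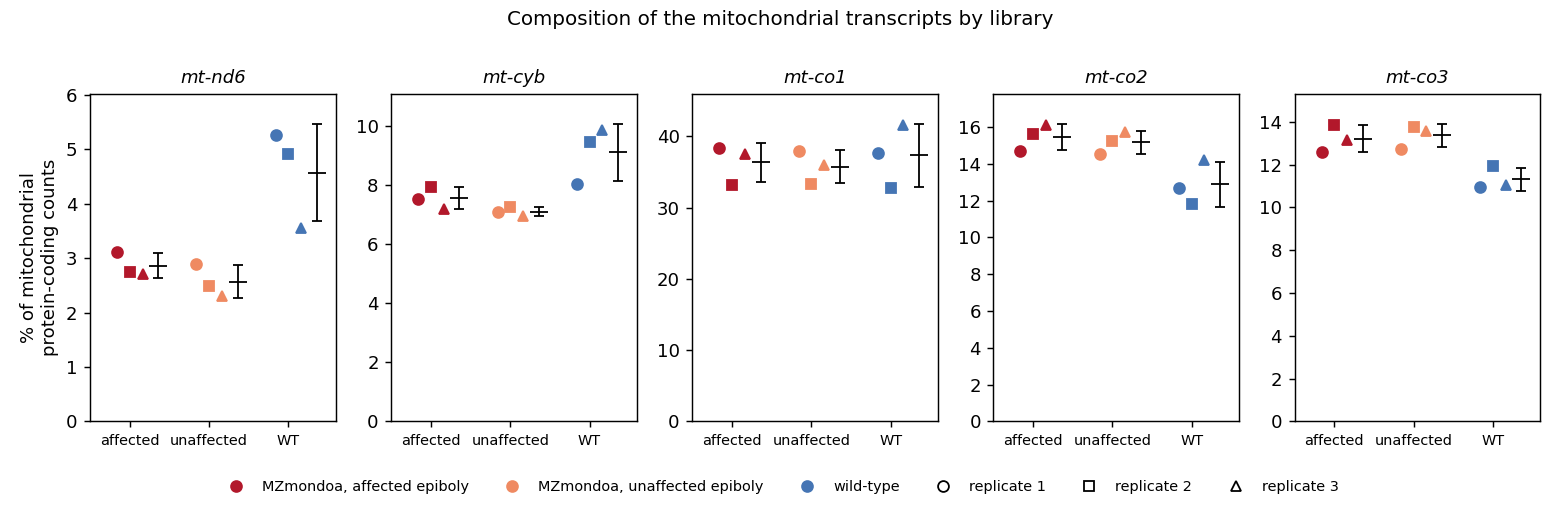
Share of the mitochondrial protein-coding counts (%, vertical axes starting at 0) taken by *mt-nd6*, *mt-cyb*, *mt-co1*, *mt-co2* and *mt-co3* in each library of affected, unaffected and WT embryos; black bars give mean and SD of 3 libraries. *mt-nd6* takes at most 3.12% in the mutant libraries and at least 3.56% in WT embryos, whereas the shares of *mt-co1* overlap.

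Among the nuclear complex I genes, 4 of 37 tested subunits passed in affected mutants, 1 higher and 3 lower, and 2 in unaffected mutants, both lower. By complex, the share of nuclear members that passed in affected mutants was 10.8% for I, 20.0% for II, 22.2% for III, 0% for IV and 5.00% for V, against 30.3% of all tested genes. In unaffected mutants it was 5.41% for I, 11.1% for III and 0% for II, IV and V, against 9.60% of all tested genes. *ndufa6* (ENSDARG00000038028), an accessory subunit, had 2.45, 2.15 and 3.26 CPM in affected mutants, 2.51, 2.50 and 3.60 CPM in unaffected mutants, and 5.05, 5.38 and 6.28 CPM in WT embryos. Mutant and WT libraries were well apart. It had the most negative log2 fold change of all members, -1.09 ± 0.22 in affected (adjusted p = 0.00459) and -0.95 ± 0.22 in unaffected mutants (adjusted p = 0.0214, and up to 0.0895 without unaffected replicate 1 or 2).

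*ndufb10* (ENSDARG00000028889), an accessory subunit of the membrane arm, had 3.45, 1.88 and 2.41 CPM in affected mutants, 2.41, 2.11 and 2.68 CPM in unaffected mutants, and 3.88, 4.42 and 5.26 CPM in WT embryos. The log2 fold change was -0.81 ± 0.23 in affected (adjusted p = 0.026) and -0.91 ± 0.24 in unaffected mutants (adjusted p = 0.0379). These calls were lost in 4 of 6 fits (affected replicate 2 or 3, WT replicate 2 or 3; adjusted p up to 0.0985) and in 5 of 6 fits (all except unaffected replicate 3; adjusted p up to 0.134). *ndufa6* and *ndufb10* each overlap an uncharacterized gene in the RefSeq annotation of the GRCz12tu assembly, so their counts are uncertain where strands were not separated.

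*ndufb9* (ENSDARG00000041314), a further membrane arm subunit, had 11.1, 12.2 and 12.7 CPM in affected mutants, 13.3, 13.2 and 14.8 CPM in unaffected mutants, and 14.6, 16.1 and 16.2 CPM in WT embryos. Affected mutants were below both other groups in every library, with a log2 fold change of -0.38 ± 0.11 over WT (adjusted p = 0.0232) and of -0.20 over unaffected mutants (adjusted p = 0.369). *ndufb11* (ENSDARG00000043467), of the same arm, was higher, at 11.9, 14.2 and 15.4 CPM in affected mutants, 11.4, 13.9 and 14.5 CPM in unaffected mutants, and 7.999, 9.13 and 10.7 CPM in WT embryos. All mutant libraries were above WT, with log2 fold changes of 0.57 ± 0.15 in affected (adjusted p = 0.0181) and 0.52 ± 0.15 in unaffected mutants (adjusted p = 0.0613, and 0.00766 with the replicate block). The calls in affected mutants were lost without affected replicate 1 or 2 or WT replicate 2 or 3 for *ndufb9* (adjusted p up to 0.0911) and without affected replicate 2 or 3 or WT replicate 1 for *ndufb11* (adjusted p up to 0.0637).

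Of the nuclear core subunits of complex I named here, 0 passed in the main edgeR fit. *ndufs1* (ENSDARG00000028546), an iron-sulfur subunit with the highest CPM among the nuclear complex I genes, which overlaps *asic4b* and *ino80db* in the annotation, had 60.4, 51.8 and 62.1 CPM in affected mutants, 66.7, 60.1 and 71.9 CPM in unaffected mutants, and 67.8, 67.0 and 72.3 CPM in WT embryos. Affected mutants lay below WT without overlap but did not pass (log2 fold change -0.25, adjusted p = 0.0832). The core subunits *ndufs3*, *ndufs7*, *ndufs8*, *ndufv1* and *ndufv2* did not pass in the main fit in any comparison, with log2 fold changes between -0.42 (*ndufv1*) and 0.15 (*ndufs8*) in affected mutants. There *ndufv1* also lay below WT without overlap (adjusted p = 0.087). It passed without WT replicate 2 and with the replicate block. Of the 7 tested complex I assembly factors with an *ndufaf* symbol, 0 passed. *ndufaf8* was not tested in the main fit, having 1, 2 and 4 counts in affected mutants, 0 counts in each unaffected library, which allows up to 0.108 CPM, and 13, 6 and 5 counts in WT embryos. Without a filter on low counts *ndufaf8* passed between unaffected mutants and WT embryos.

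Complex II, which has no mitochondrially encoded subunit, had 1 of 5 tested members past the threshold in the main edgeR fit. A second, the *sdhd* gene ENSDARG00000030139, had 10.7, 12.9 and 12.8 CPM in affected mutants and 10.2, 8.84 and 9.68 CPM in WT embryos. The groups did not overlap, but the log2 fold change of 0.34 did not pass in that fit (adjusted p = 0.0598). DESeq2, the replicate block and the fit without affected replicate 1 called it. *sdhc* (ENSDARG00000038608), which anchors the complex in the membrane, had 22.1, 18.7 and 23.8 CPM in affected mutants, 17.5, 17.6 and 23.2 CPM in unaffected mutants, and 14.8, 13.4 and 17.9 CPM in WT embryos. Affected mutants were above WT in every library (log2 fold change 0.48 ± 0.16, adjusted p = 0.0392), but the call was lost in 4 of 6 fits (affected replicate 1 or 3, WT replicate 1 or 2; adjusted p up to 0.117) and with scaling by library size only (adjusted p = 0.0708). In unaffected mutants the log2 fold change of 0.33 passed only with the replicate block (adjusted p = 0.0374, against 0.215 without). The catalytic subunit *sdha* (ENSDARG00000016721) had 41.7, 36.6 and 42.0 CPM in affected mutants, 44.6, 41.1 and 45.5 CPM in unaffected mutants, and 37.8, 40.3 and 40.7 CPM in WT embryos, with a log2 fold change of 0.02 in affected mutants (adjusted p = 0.899).

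In complex III, 2 of 9 tested members were higher in affected mutants. *uqcrh* (ENSDARG00000059128), the hinge protein at the cytochrome c1 contact, had 96.5, 114 and 110 CPM in affected mutants, 85.1, 97.0 and 96.7 CPM in unaffected mutants, and 83.2, 78.3 and 73.8 CPM in WT embryos. Both mutant groups were above WT, with log2 fold changes of 0.45 ± 0.10 in affected (adjusted p = 0.0064) and 0.24 ± 0.09 in unaffected mutants (adjusted p = 0.139). *uqcrc2* (ENSDARG00000071691), a core protein of the complex, had 83.5, 87.0 and 93.4 CPM in affected mutants, 87.4, 85.8 and 92.9 CPM in unaffected mutants, and 67.2, 73.2 and 69.9 CPM in WT embryos. It passed in both comparisons, at 0.33 ± 0.08 in affected (adjusted p = 0.012) and 0.34 ± 0.08 in unaffected mutants (adjusted p = 0.0248), there with an adjusted p of up to 0.0809 without unaffected replicate 1, 2 or 3 or WT replicate 1. Its paralogue *uqcrc2a* had log2 fold changes of -0.11 and 0.02, and *cyc1* (ENSDARG00000038075), cytochrome c1, of -0.04 and 0.05. *uqcr10* (ENSDARG00000104517) was scarce, at 1.52, 1.58 and 1.82 CPM in affected mutants, 1.51, 1.41 and 1.55 CPM in unaffected mutants, and 2.03, 2.09 and 3.66 CPM in WT embryos. It lay below WT in every mutant library, and WT replicate 3 was far above the other WT libraries. Its log2 fold changes of -0.67 (adjusted p = 0.0719) and -0.81 (adjusted p = 0.0775) did not pass in the main edgeR fit. Values without WT replicate 3 are not given for it. With the replicate block *uqcr10* passed in both comparisons, and so did *uqcrc1* (0.35 and 0.38 in the main fit). Without WT replicate 3 *uqcrc1* also passed in affected mutants.

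None of the 15 tested nuclear complex IV genes passed in either comparison with WT in the main edgeR fit, in contrast to the mitochondrial subunits *mt-co2* and *mt-co3*. At an unadjusted p below 0.05 there was 1 in each, against 41.4% of all tested genes for affected and 25% for unaffected mutants. By DESeq2, *cox4i1* passed in both. In affected mutants *cox6c* passed with the replicate block. In unaffected mutants the *cox7a2* gene ENSDARG00000110700 passed without WT replicate 2 (log2 fold change -1.02, adjusted p = 0.0376). *cox4i1* (ENSDARG00000032970), the main isoform of a regulatory subunit in mammals, had 21.8, 24.3 and 27.0 CPM in affected mutants, 20.2, 21.9 and 25.4 CPM in unaffected mutants, and 28.8, 29.4 and 43.3 CPM in WT embryos. All mutant libraries were below WT, and WT replicate 3 was far above the others. The log2 fold changes of -0.47 ± 0.17 in affected (adjusted p = 0.0543) and -0.59 ± 0.17 in unaffected mutants (adjusted p = 0.0517) missed the threshold narrowly. Without WT replicate 3 they were -0.25 (adjusted p = 0.167) and -0.37 (adjusted p = 0.0998). With the replicate block both comparisons passed, at -0.46 in affected (adjusted p = 0.00548) and -0.57 in unaffected mutants (adjusted p = 0.00532).

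Several complex IV subunits exist as alternative isoforms, which in mammals differ between tissues. *cox6b2* (ENSDARG00000037860), which overlaps *rasip1* in the annotation, had 177, 184 and 217 CPM in affected mutants, 166, 184 and 226 CPM in unaffected mutants, and 163, 169 and 201 CPM in WT embryos, whereas *cox6b1* had at most 11 counts in any library. The testis isoform in mammals is *COX6B2*; the zebrafish symbols come from the name table. *cox4i2*, the isoform linked to low oxygen in mammals, had 0.235 to 1.23 CPM. *cox6a1* (ENSDARG00000022438), both *cox7a2* genes, *cox7a2l*, *cox8a* and *ndufa4* (a complex IV subunit despite its name) had log2 fold changes between -0.25 and 0.10 in affected and between -0.72 and 0.11 in unaffected mutants, none past the threshold in the main fit.

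In ATP synthase, 1 of 20 tested nuclear members passed in affected mutants and 0 in unaffected mutants. *atp5f1d* (ENSDARG00000019404), the delta subunit of the central stalk, had 15.99, 13.5 and 16.4 CPM in affected mutants, 16.2, 16.7 and 19.2 CPM in unaffected mutants, and 21.1, 18.6 and 21.2 CPM in WT embryos. It was lower in affected mutants, at -0.41 ± 0.12 on the log2 scale (adjusted p = 0.0257), in a call that 4 of 6 fits without a single library lost (affected replicate 1 or 2, WT replicate 1 or 3; adjusted p up to 0.111). The catalytic beta subunit *atp5f1b* (ENSDARG00000070083), the nuclear member with the highest CPM, had 312, 292 and 317 CPM in affected mutants, 339, 310 and 350 CPM in unaffected mutants, and 293, 322 and 292 CPM in WT embryos, with log2 fold changes of 0.02 and 0.14. *atp5mf* (ENSDARG00000037867), a subunit of the membrane part, had 49.8, 44.4 and 55.1 CPM in affected mutants, 34.0, 39.0 and 53.0 CPM in unaffected mutants, and 30.6, 27.0 and 44.3 CPM in WT embryos. Affected mutants lay above WT in every library, narrowly for WT replicate 3. The log2 fold change of 0.55 ± 0.20 did not pass in the main edgeR fit (adjusted p = 0.0654). DESeq2, the replicate block, the fit without a filter on low counts and the fit without WT replicate 3 called *atp5mf*. The c-ring genes *atp5mc1*, *atp5mc3* and *atp5mc3b* had log2 fold changes between 0.05 and 0.24 in affected mutants and did not pass. With the replicate block *atp5mc3b* passed (adjusted p = 0.0227).

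**Figure D5:**
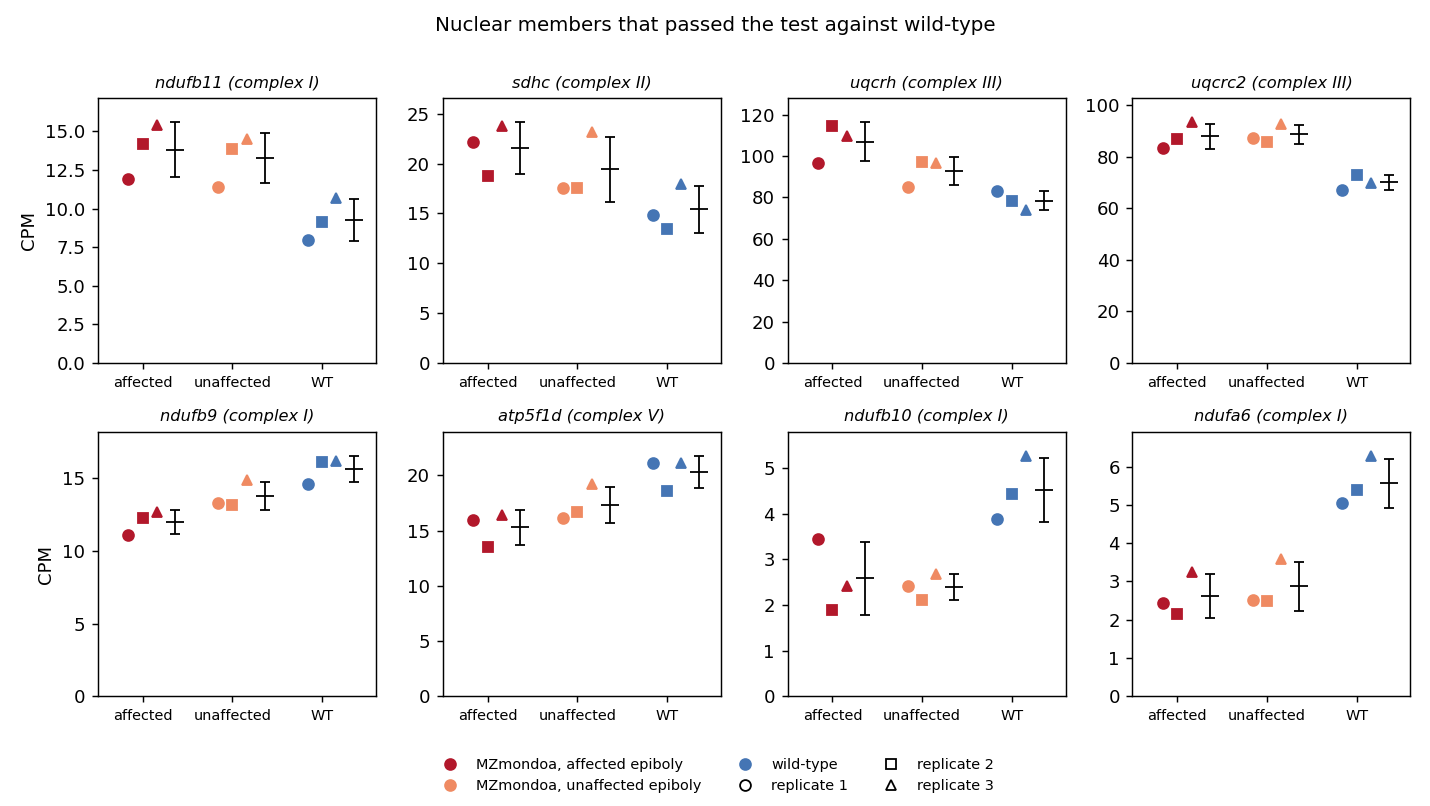
CPM (vertical axes, starting at 0) of the 8 nuclear members that passed the test against WT in affected or unaffected mutants, in each library of affected, unaffected and WT embryos; black bars give mean and SD of 3 libraries. *ndufb11*, *sdhc*, *uqcrh* and *uqcrc2* are higher and *ndufb9*, *atp5f1d*, *ndufb10* and *ndufa6* lower in affected mutants than in WT embryos, without overlap.

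Across all members, 15 were higher and 11 lower in affected mutants than in WT embryos without overlap of the libraries (22.6% and 22.5% of all tested genes were, 45.1% in both directions), 14 and 9 in unaffected mutants (13.9% and 14.0%, together 27.9%), and 4 and 2 between affected and unaffected mutants (13.3% and 12.1%, together 25.4%). The remaining 85 tested nuclear members passed in neither comparison with WT. Their log2 fold changes ran between -0.67 and 0.62 in affected and between -0.88 and 0.80 in unaffected mutants. The 12 untested members had at most 13 counts in any library, 10 of them belong to complex IV by symbol, and 2 (*cox8b* and *ndufb1*) had 0 counts throughout.

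Among 24 tested regulators of mitochondrial gene expression and biogenesis, 5 passed in affected mutants, 1 higher and 4 lower, and 2 in unaffected mutants, both lower, with medians of -0.12 and 0.04. These were 20.8% and 8.33% of the list, against 30.3% and 9.60% of all tested genes. *esrrg* (ENSDARG00000004861), an orphan nuclear receptor that in mammals activates genes of oxidative metabolism, had 0.724, 0.404 and 1.16 CPM in affected mutants, 0.790, 0.985 and 0.789 CPM in unaffected mutants, and 6.83, 5.76 and 7.14 CPM in WT embryos. Every mutant library was far below WT, with log2 fold changes of -3.10 ± 0.31 (adjusted p = 0.000144) and -2.94 ± 0.30 (adjusted p = 0.000347). *polrmt* (ENSDARG00000101220), the mitochondrial RNA polymerase, had 19.1, 19.8 and 19.1 CPM in affected mutants, 23.4, 21.2 and 24.7 CPM in unaffected mutants, and 26.9, 29.1 and 26.6 CPM in WT embryos. It was lower in affected mutants (-0.51 ± 0.09, adjusted p = 0.00309), while -0.25 in unaffected mutants did not pass (adjusted p = 0.121). *yy1* (ENSDARG00000027978) was lower in both, at -0.56 (adjusted p = 0.0043) and -0.47 (adjusted p = 0.0248), where the call was lost without unaffected replicate 2 or 3 or WT replicate 1 or 2 (adjusted p up to 0.103). The second gene named *yy1* (ENSDARG00000042796) had log2 fold changes of -0.02 and -0.03. With the replicate block, 2 regulators were higher and 2 lower in unaffected mutants, against 16.3% of all genes in that fit.

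Assembly factors that do not carry a member symbol were tested in 35 genes, of which 6 were higher in affected and 1 in unaffected mutants, with medians of 0.14 and 0.12. These were 17.1% and 2.86% of the list, against 15.4% and 4.65% of all tested genes that were higher. *surf1* (ENSDARG00000003592), which is needed to assemble complex IV, had 9.92, 10.0 and 9.40 CPM in affected mutants, 7.26, 7.21 and 8.84 CPM in unaffected mutants, and 7.17, 4.57 and 6.58 CPM in WT embryos (0.68 ± 0.17 in affected mutants, adjusted p = 0.0152). *cox11*, a copper chaperone of complex IV, rose by 0.63 (adjusted p = 0.0216) in affected mutants, which was lost without affected replicate 3 or WT replicate 1 or 2 (adjusted p up to 0.0718). *foxred1*, a complex I assembly factor that overlaps *cry5* in the annotation, rose by 0.54 in affected (adjusted p = 0.0281) and by 0.63 in unaffected mutants (adjusted p = 0.0355). These calls were lost without affected replicate 1 or 2 or WT replicate 2 or 3 (adjusted p up to 0.102) and in every fit without a single library except that without WT replicate 1 (up to 0.125). The count of 6 in affected mutants was 3 without affected replicate 2 or 3 or WT replicate 2 or 3, and 3 higher and 1 lower with scaling by library size only. Shares of all genes in these fits are not given here, so the lower counts cannot be read as particular to this list.

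Of 16 tested genes for the mobile electron carriers and coenzyme Q synthesis, 3 passed in affected mutants, 1 higher and 2 lower, and 1 in unaffected mutants, lower, with medians of -0.03 and 0.04. These were 18.8% and 6.25% of the list, against 30.3% and 9.60% of all tested genes. *coq7*, which hydroxylates the coenzyme Q precursor, fell in both, at -0.41 (adjusted p = 0.0253) and -0.67 (adjusted p = 0.00644), and *coq9*, its partner, fell in affected mutants, at -1.21 (adjusted p = 0.00697). *cycsb*, a somatic cytochrome c gene, rose by 0.30 in affected mutants (adjusted p = 0.0397). In unaffected mutants its 0.27 passed only with the replicate block (adjusted p = 0.0268, against 0.112 without), as did 2 more genes of the list. In that fit 16.3% of all genes passed. In affected mutants, *coq7* was lost without affected replicate 1 or 3 or WT replicate 2 or 3 (adjusted p up to 0.0925), *cycsb* without affected replicate 2 or 3 or WT replicate 1 or 3 (up to 0.118) and with scaling by library size only (0.0800). *coq9* and *cycsb* overlap other genes in the annotation.

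Of the 15 tested tricarboxylic acid cycle genes, 2 rose in affected mutants, and 1 rose and 1 fell in unaffected mutants, with medians of 0.14 and 0.12. In each comparison 13.3% of the list passed, against 30.3% of all tested genes in affected and 9.60% in unaffected mutants. *idh3g* (ENSDARG00000023648), a subunit of the NAD-dependent isocitrate dehydrogenase, had 138, 134 and 127 CPM in affected mutants, 106, 118 and 103 CPM in unaffected mutants, and 90.4, 77.1 and 82.4 CPM in WT embryos. Its log2 fold changes were 0.67 (adjusted p = 0.000645) and 0.39 (adjusted p = 0.0233), the call in unaffected mutants being lost without unaffected replicate 1 or 2 or WT replicate 2 (adjusted p up to 0.0961). *suclg2*, a subunit of succinyl-CoA ligase, fell in unaffected mutants, at -0.76 (adjusted p = 0.00984). With the block, 3 genes were higher and 1 lower in unaffected mutants, against 16.3% of all genes in that fit.

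Of 7 tested genes for transport and uncoupling, 1 rose in affected mutants, and 2 rose and 1 fell in unaffected mutants, with medians of -0.04 and 0.02. These were 14.3% and 42.9% of so short a list, against 30.3% and 9.60% of all tested genes. Of the genes named *slc25a3*, the mitochondrial phosphate carrier, the abundant one (ENSDARG00000025566) had 244 to 274 CPM in affected mutants, 251 to 300 CPM in unaffected mutants, and 245 to 278 CPM in WT embryos. The other (ENSDARG00000027424) was scarce, at 0.639 to 1.03 CPM in affected mutants, 0.844 to 1.26 CPM in unaffected mutants, and 0.0923 to 0.174 CPM in WT embryos. Only the scarce one passed, at 2.71 (adjusted p = 0.00074) and 2.92 (adjusted p = 0.00104). Its WT values lie near the level of 3 counts, which is 0.0763 to 0.0923 CPM in the WT libraries. It passed the filter on low counts through the mutant libraries, where it is high, so its fold changes and calls carry little weight. It is the only call of the list in affected mutants and 1 of 3 in unaffected mutants. *slc25a5*, an adenine nucleotide carrier, rose by 0.33 in unaffected mutants (adjusted p = 0.0396), and *vdac3*, an outer membrane channel, fell in unaffected mutants, at -0.52 (adjusted p = 0.0415). *slc25a5* was lost without any single library (adjusted p up to 0.108) and *vdac3* without unaffected replicate 1, 2 or 3 or WT replicate 2 (up to 0.122).

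Of 72 tested genes of the mitochondrial ribosome, which translates the mitochondrial transcripts, 9 were higher and 4 lower in affected mutants, 3 were higher in unaffected mutants, and 1 (*mrps6*) differed between affected and unaffected mutants, with medians of 0.04, 0.00 and -0.02. These were 18.1%, 4.17% and 1.39% of the list, against 30.3%, 9.60% and 2.99% of all tested genes. *mrps33* (ENSDARG00000020015) had 17.1, 17.3 and 16.6 CPM in affected mutants, 14.6, 16.7 and 15.6 CPM in unaffected mutants, and 10.7, 10.4 and 10.8 CPM in WT embryos, a log2 fold change of 0.67 (adjusted p = 0.000937) and 0.55 (adjusted p = 0.00662). *mrpl19* was higher in both, at 0.51 (adjusted p = 0.00481) and 0.47 (adjusted p = 0.019, and up to 0.0649 without unaffected replicate 1 or WT replicate 1 or 2). Leaving out 1 library gave 5 to 9 of these genes in affected mutants, with 5 without affected replicate 2, 6 without affected replicate 1, 7 without WT replicate 2 and 8 without affected replicate 3 or WT replicate 1. Shares of all genes in these fits are not given here, so the lower counts cannot be read as particular to this list. The replicate block gave 9 higher and 2 lower in unaffected mutants, against 16.3% of all genes in that fit. *mrps6* (0.47 over unaffected mutants, adjusted p = 0.0327) was lost without affected replicate 1 or 2 or unaffected replicate 1 or 3 (adjusted p up to 0.14).

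Of the marker lists of cell types and stages with more than 4 tested genes, 46.7% to 76.9% of the genes passed in affected mutants against WT, against 30.3% of all tested genes, in the enveloping layer, gastrula and segmentation lists in both directions. Of 11 tested markers of the yolk syncytial layer, which takes part in epiboly, 6 were higher in affected mutants than in WT embryos. Compared with unaffected mutants, 4 were higher, and 0 differed between unaffected mutants and WT embryos (by edgeR, 3 at an unadjusted p below 0.05). Of all tested genes, 15.4% were higher in affected mutants than in WT embryos and 1.88% were higher than in unaffected mutants. Between unaffected mutants and WT embryos 9.60% of all tested genes passed, and 25% had an unadjusted p below 0.05. The sum of the yolk syncytial layer markers was 3903 to 4759 CPM in affected mutants, 2991 to 3513 CPM in unaffected mutants, and 3391 to 3600 CPM in WT embryos, with *ttr* at 0 counts. The 4 calls between the mutant groups became 0 without affected replicate 2, unaffected replicate 1 or unaffected replicate 3, and 1 without affected replicate 1. Of 13 maternal transcripts, 7 were higher in affected mutants than in WT embryos and 0 in unaffected mutants (by edgeR, 2 at an unadjusted p below 0.05), and the sum was 795 to 998 CPM in affected mutants, 544 to 851 CPM in unaffected mutants, and 525 to 594 CPM in WT embryos. The count of 7 was 2 to 5 without single libraries, lowest without affected replicate 2. For the fits without single libraries the share of all genes is not given here, so the lower counts cannot be read as particular to these markers.

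Of 13 genes of segmentation onset, 3 were higher and 7 lower in affected mutants than in WT embryos (4 in all without affected replicate 2, and 6 without affected replicate 1 or 3 or WT replicate 1 or 2). Their sum was 586 to 789 CPM in affected mutants, 739 to 833 CPM in unaffected mutants, and 781 to 971 CPM in WT embryos. Of 15 enveloping layer genes, 3 were higher and 4 lower in affected mutants than in WT embryos and 1 (*krt5*) was higher in unaffected mutants. The sums were 10010 to 11370 CPM in affected mutants, 13190 to 15190 CPM in unaffected mutants, and 11400 to 14720 CPM in WT embryos. Compared with unaffected mutants, 3 of the 15 were lower in affected mutants (20% of the list, against 1.11% of all tested genes). Of these, *krt5* (log2 fold change -0.78) passed in every alternative (adjusted p up to 0.0343). *cyt1* (-1.25) was lost in 5 of 14 alternatives (adjusted p up to 0.147). Of 14 gastrula deep cell genes, 5 were higher and 2 lower in affected mutants (4 in all without affected replicate 2 or WT replicate 2), with sums of 2249 to 2500 CPM in affected mutants, 2121 to 2357 CPM in unaffected mutants, and 1984 to 2233 CPM in WT embryos. Between the mutant groups, *otx2* of the gastrula list (-0.67) and *rx3* of the segmentation list (-1.33) were lower in affected mutants. These were 7.14% and 7.69% of the lists, against 1.11% of all tested genes. Each was lost in 4 of 14 alternatives. Shares of all genes in the fits without single libraries are not given here, so the lower counts cannot be read as particular to these markers. Of 4 tested muscle and heart genes 0 passed by any fit, including at an unadjusted p below 0.05 in edgeR.

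In the comparison of unaffected mutants with WT, *krt5* alone of these markers passed, where 9.60% of all tested genes did. With the replicate block, where 16.3% of all genes passed, *hnf4a*, *sox32*, *buc*, *ccnb1* and *zp3b* also passed as higher and *apoa2* as lower. Without unaffected replicate 3, some of the yolk syncytial, deep cell, segmentation and maternal genes also passed. The share of all genes in that fit is not given here. The part of these shifts in the differences between mutants and WT was not tested.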

How the data were processed

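RNA was sequenced in 9 libraries of zebrafish embryo pools, and groups and replicate numbers came from the labels. Raw read counts over the exons of each gene were deposited: the authors mapped paired reads of stranded, ribosomal-RNA-depleted libraries with STAR (2.4.0i in the submitters' processing notes) to GRCz11 and assigned uniquely mapped pairs to Ensembl genes with SAMtools. Use of the strand in counting is not given in the sources used here, and pairs shared by near-identical genes were dropped by the uniqueness step. Symbols came from a table of Ensembl identifiers (28986 rows matched), and gene overlaps from RefSeq on another assembly, GRCz12tu. The mitochondrial ribosomal RNAs were not analysed here.

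The test was edgeR 4.0.16 under R 4.3.3 (filterByExpr, TMM, glmQLFit and glmQLFTest, two-sided) in a single fit of all 9 libraries without covariates, with limma 3.58.1 as a dependency. Each of 3 comparisons was corrected by the Benjamini-Hochberg method across the 16962 tested genes, with a threshold of 0.05. The coefficient of a gene and the F value of its test gave the standard error. TMM-scaled library sizes were the denominator of CPM. A count of 0 allows up to 3 counts, a limit that covers counting error only. Totals of 27567897 to 39299268 counts per library set the precision. The labels do not say how the pools of a group were separated, so p-values measure the spread between these libraries. Libraries of a group differed from each other well beyond sampling noise (chi-square of 9.43 to 74.2 per degree of freedom).

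For libraries of 1 replicate number, the distances from the mean of their own group were correlated over genes. Unaffected with WT libraries gave 0.112, 0.130 and 0.249, and affected with unaffected libraries 0.156, 0.223 and 0.443. Between affected and WT libraries the values were 0.074, 0.104 and 0.244. Values for libraries of different numbers are not given here, so whether the numbers pair libraries was not tested. The replicate block is therefore given only as an alternative setting, in every comparison.

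The members and gene lists were chosen with earlier results of these data known. Named are all mitochondrial members, in each comparison the 4 nuclear members with the lowest p that were higher and the 4 that were lower, the most abundant nuclear member of each complex, isoform families, and at most 3 genes of each other list; further genes were named after their values were seen. The list of mitochondrial ribosome genes was added later by symbol prefix. Alternatives were DESeq2 1.42.0, library size scaling, scaling without mitochondrial genes, other filters, only the libraries compared, the replicate block and leaving out libraries. The code was tested on simulated data. Results of some single genes are not reported here.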

Additional observations from a re-analysis of the deposited data

How the results depend on the processing

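No result changed direction past the threshold under any alternative. With the replicate block, 28 members passed in affected mutants against WT (17 nuclear, with *ndufs1* and *ndufv1* among those gained, and 11 mitochondrial) instead of 15 (8 and 7), and 21 in unaffected mutants (10 nuclear) instead of 12 (3 nuclear), and every call of the fit without the block remained (15 of 15 and 12 of 12). Whether replicate numbers pair libraries was not tested, so the counts with the block show only how far the calls depended on this setting. Between affected and unaffected mutants 0 members passed in every alternative. In unaffected mutants, 7 members (5 mitochondrial) passed in the fit of the 6 libraries alone, and 5 nuclear members passed with DESeq2 and 5 without a filter on low counts. Leaving out 1 library gave 9 to 17 members (4 to 10 nuclear, 5 to 8 mitochondrial) in affected and 2 to 12 (0 to 5 nuclear, 2 to 9 mitochondrial) in unaffected mutants. Without single libraries, 8 of the 15 calls in affected mutants and 2 of the 12 in unaffected mutants passed throughout. Shares of all genes under the alternatives are not given in this section, so its counts cannot be read as particular to the members. The cause of these shifts was not tested. Without replicate 3 of every group, an alternative chosen after seeing the data, 16 and 10 members passed. Scaling without the mitochondrial genes left both counts at 15 and 12. Over the named genes in all 3 comparisons, 2736 of the values under alternatives kept their side of the threshold, 164 passed only in the main fit and 76 only in the alternative. Genes far from the threshold are part of this tally, so it does not measure how stable the calls were. Of the counts of members and the summed levels under alternatives, 22 moved beyond a set margin and 152 did not.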
